A study of Mus musculus with 10 samples.

Results

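Of the 2335 Ring1b peaks deposited for mouse embryonic stem cells (ESCs), 546 (23.4%) overlapped a peak of the histone mark H3K27me3 and shared no base with any peak of Ezh2 or of Cbx2. These Ring1b/H3K27me3 peaks were selected on measured values, since all 4 ESC lists of peaks entered the choice, and an overlap was counted from 1 bp. They covered 1.23 Mb of mm9. ChIP-seq was performed on unmodified J1 ESCs, a mouse line grown on inactivated embryonic fibroblast feeders with leukemia inhibitory factor, and on neural stem cells (NSCs) differentiated from J1 ESCs in culture and kept in medium with EGF and FGF. Both cell types were kept under standard growth conditions with no further treatment, and feeders were depleted from the ESCs at harvest. ESCs were profiled for Ring1b, Ezh2, Cbx2 and H3K27me3, and NSCs for Ring1b and H3K27me3, from 1 library per cell type and target. The 4 inputs were not used here. No list of peaks therefore has a replicate check, the peaks of 1 library are not replicates of each other, and the tests below describe these libraries. The number of reads behind each list is unknown, and a missing peak means only that no window passed the authors' threshold there.

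Ring1b is the ubiquitin ligase of Polycomb repressive complex PRC1, which marks histone H2A. Ezh2 is the methyltransferase of the PRC2 complex, which deposits H3K27me3, and Cbx2 belongs to the group of PRC1 subunits that bind this mark. In ESCs both complexes are found mainly at CpG-rich start sites of developmental genes that are silent or weakly transcribed, and Polycomb binding is redistributed when cells take on a lineage.

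Start site sequences are given as examples, chosen by width of the ESC Ring1b peak. They come from the 3 widest Ring1b/H3K27me3 peaks that overlapped both NSC lists and the 3 widest that overlapped neither, among peaks with a protein-coding start site inside. Each run holds the bases just before the annotated start, in the direction of transcription, in lower case with every CpG in capitals. The first set, from peaks with both NSC marks, lies at chr12:74041821-74042070 (minus strand), chr14:104867217-104867466 (minus) and chr4:131394204-131394453 (minus) in mm9. 4930447C04Rik shares its peak with the homeobox gene Six6, and this run falls between annotated exons within the span of Six6.
4930447C04Rik: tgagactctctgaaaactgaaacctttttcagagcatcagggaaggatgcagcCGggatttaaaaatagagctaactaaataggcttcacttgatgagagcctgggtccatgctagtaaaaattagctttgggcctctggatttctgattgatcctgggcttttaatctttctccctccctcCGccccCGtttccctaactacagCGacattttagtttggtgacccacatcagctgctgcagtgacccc
Pou4f1: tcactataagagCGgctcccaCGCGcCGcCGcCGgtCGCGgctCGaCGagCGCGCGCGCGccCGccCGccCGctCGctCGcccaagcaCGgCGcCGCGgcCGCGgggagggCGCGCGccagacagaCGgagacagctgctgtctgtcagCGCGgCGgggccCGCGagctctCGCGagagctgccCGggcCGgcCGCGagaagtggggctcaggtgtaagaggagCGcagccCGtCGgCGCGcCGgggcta
Ptpru: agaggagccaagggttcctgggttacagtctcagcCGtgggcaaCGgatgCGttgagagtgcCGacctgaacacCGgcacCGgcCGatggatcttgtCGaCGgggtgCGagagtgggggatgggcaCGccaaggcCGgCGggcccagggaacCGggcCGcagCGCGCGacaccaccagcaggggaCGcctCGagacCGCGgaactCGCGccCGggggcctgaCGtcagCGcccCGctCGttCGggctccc
The second set, from peaks with neither NSC mark, lies at chr17:23877298-23877547 (minus strand), chr3:133899534-133899783 (plus) and chr8:90483495-90483744 (minus).
Paqr4: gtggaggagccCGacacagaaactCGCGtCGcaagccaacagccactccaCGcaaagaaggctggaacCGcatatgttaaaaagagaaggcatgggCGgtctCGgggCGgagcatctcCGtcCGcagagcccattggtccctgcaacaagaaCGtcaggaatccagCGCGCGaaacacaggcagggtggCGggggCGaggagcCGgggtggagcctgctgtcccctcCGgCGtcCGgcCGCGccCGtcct
Cxxc4: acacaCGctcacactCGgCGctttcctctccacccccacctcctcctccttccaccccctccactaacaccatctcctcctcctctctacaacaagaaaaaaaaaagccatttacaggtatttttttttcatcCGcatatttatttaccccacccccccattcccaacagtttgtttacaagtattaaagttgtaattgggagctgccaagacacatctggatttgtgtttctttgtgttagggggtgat
Zfp423: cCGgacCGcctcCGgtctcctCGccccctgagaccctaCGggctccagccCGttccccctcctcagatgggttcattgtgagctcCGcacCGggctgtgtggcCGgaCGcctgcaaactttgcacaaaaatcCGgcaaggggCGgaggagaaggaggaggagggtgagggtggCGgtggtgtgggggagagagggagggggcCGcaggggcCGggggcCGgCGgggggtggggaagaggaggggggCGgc
The bases before Six6 and before Kremen2, which shares its peak with Paqr4, lie in annotated exons and are not shown. Pou4f1 had 47 CpGs in its 250 bases and Ptpru had 30, whereas 4930447C04Rik had 4. Among peaks without an NSC mark, Paqr4 had 24, Zfp423 had 18 and Cxxc4 had 4, so both sets held a start site with dense CpGs and one with few.

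The 546 peaks were CpG-rich as a group. Their median GC content was 60.1% and their median ratio of observed to expected CpGs was 0.678, against 59% and 0.643 for the 468 Ring1b peaks that also overlapped Ezh2 (Ring1b/Ezh2/H3K27me3 peaks, no Cbx2) and 58.8% and 0.665 for the 831 Ring1b peaks that overlapped no other ESC list. In the 371 Ring1b peaks of all 4 ESC lists these medians were 53.9% and 0.577. Over the 300 bases around each of the 341 protein-coding start sites inside Ring1b/H3K27me3 peaks (250 before to 50 after), the median GC content was 67% with 25 CpGs, compared with 55.3% and 11 CpGs over all 22350 protein-coding start sites of the annotation. The GC box GGGCGG was found on either strand in 68.6% of these windows and in 43.5% of all windows. The E-box CACGTG was found in 11.4% and 7.79%, the letters GCGGGAA of an E2F type site in 9.38% and 5.59%, CCGGAA of an Ets type site in 12.9% and 17.5%, and GCCATNTT of a YY1 type site in 3.23% and 6.54%. Matches to the GC box and to the E2F type letters can share bases, and a match describes letters and not binding. Over all 1571 start sites inside any ESC Ring1b peak the shares were 65.4% for the GC box, 10.2% for the E-box, 8.53% for the E2F type, 10.8% for the Ets type and 2.55% for the YY1 type.

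The median width of Ring1b/H3K27me3 peaks was 2000 bp (quartiles 1600 and 2600 bp), close to the 2200 bp of all ESC Ring1b peaks. The smallest width in the lists, 1000 bp, was found for 38 of them (6.96%), against 8.14% of all ESC Ring1b peaks and 16.7% of Ring1b peaks alone, and 10 were 5 kb or wider. The median was 1600 bp for Ring1b peaks alone, 2800 bp for Ring1b/Ezh2/H3K27me3 peaks and 7000 bp for peaks of all 4 lists. Widths were given by the list that chose the peaks and were not tested.

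**Figure D1:**
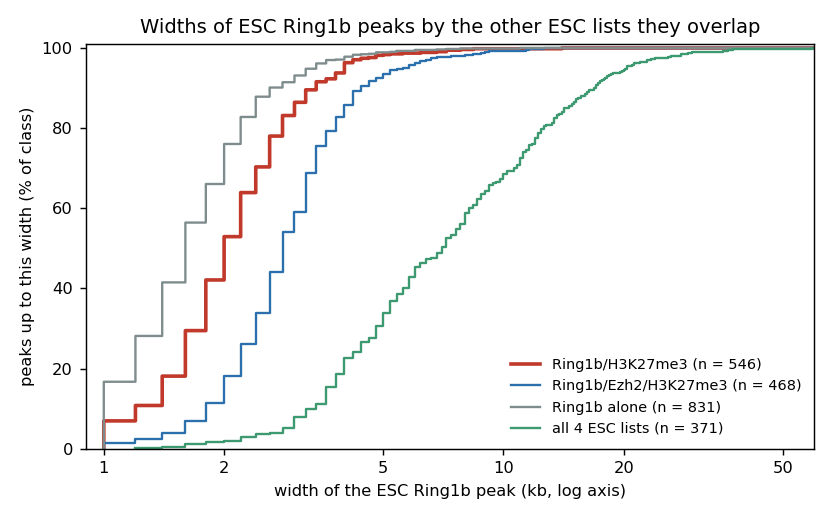
Cumulative share of ESC Ring1b peaks (y axis, % of each class) up to a given width (x axis, kb, log axis), 1 line per class of overlap with the other ESC lists. The Ring1b/H3K27me3 line, with a median of 2000 bp, runs between that of Ring1b peaks alone (1600 bp) and that of Ring1b/Ezh2/H3K27me3 peaks (2800 bp).

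A single H3K27me3 peak overlapped 544 of the 546 peaks. The H3K27me3 partners, 548 in all, had a median width of 1600 bp, and 97 of them (17.7%) had the smallest width of 1000 bp. H3K27me3 covered a median of 72.7% of a peak's length (quartiles 50% and 90%), and 125 peaks lay wholly under it. Of the H3K27me3 partners, 2 touched an Ezh2 peak and 1 a Cbx2 peak beyond the end of the Ring1b peak.

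Distances to Ezh2 and Cbx2 peaks are partly set by the choice of peaks and are given as a description. The median distance to the nearest Ezh2 peak was 607100 bp and to the nearest Cbx2 peak 974400 bp. No peak had either protein within 1 kb, although the rule excluded only shared bases, and 19 peaks had Ezh2 and 15 had Cbx2 within 5 kb. Within 50 kb these counts were 75 and 46. At the limit of the rule, the peaks closest to Ezh2 lay 1600 bp away, near Gad1 (chr2:70404201-70407000) and near Duoxa2 (chr2:122126401-122128400). The peaks closest to Cbx2 were 1600 bp away, near Barhl2, and 1800 bp away, near Foxf2. Just outside the rule, peaks at Cacna1i and 4932443L11Rik shared 200 and 600 bp with Ezh2, and peaks at Nbea and Hes7 each shared 1000 bp with Cbx2. The smallest overlap with H3K27me3 inside the rule was 200 bp, seen in 8 peaks, among them those at Ncs1 and Mfsd1. Outside it, 8 Ring1b peaks adjoined an H3K27me3 peak without sharing a base, as at Accn4 and Tada1. The classes compared here thus differ by short stretches of called signal for a few peaks, and Ezh2 or Cbx2 below the calling threshold cannot be seen in these lists.

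A protein-coding gene started inside 326 of the 546 peaks (59.7%) and within 1 kb of 380 (69.6%, 95% Clopper-Pearson interval 65.5% to 73.4%, counting error only), against 71.3% over all ESC Ring1b peaks. The share was lower than for Ring1b/Ezh2/H3K27me3 peaks, where it was 81.2% (difference -11.6 percentage points, 95% Newcombe interval -16.8 to -6.30; adjusted p = 3.92e-05 by Fisher's exact test, two-sided, over 5 tests). It was higher than for Ring1b peaks alone, at 64.3% (difference 5.34 points, interval 0.236 to 10.3, adjusted p = 0.0414 by the same exact test), a difference that missed the threshold under 6 of the alternatives tried. These classes also differ in median width, and no start site difference is given within a band of widths. Of the 166 peaks with no start site within 1 kb, 83 touched an exon of a protein-coding gene, 13 lay in introns and 70 lay between protein-coding genes. Peaks in introns had a median CpG ratio of 0.491 and those between genes 0.588, both below the 0.697 of peaks with a start site inside. No protein-coding gene lay within 10 kb of 37 peaks. The widest of these was a 4000 bp peak 77621 bp from the start of Nr2f2, an orphan nuclear receptor gene (chr7:77430001-77434000). Next came a 3400 bp peak 18600 bp from the start of Plk1s1 (chr2:146659601-146663000). A further 3400 bp peak lay 221768 bp from the start of Mef2c, a MADS-box factor of muscle and neurons (chr13:83864801-83868200), and 58116 bp from its other end.

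Among peaks with a start site inside, the widest, at 14000 bp, held the start site of Tbx3, a T-box factor (chr5:120110401-120124400). Only 1000 bp of it, or 7.14%, lay under H3K27me3, and its nearest Ezh2 peak was 129800 bp away. Six6, a homeobox gene of eye and pituitary development, followed with 8400 bp (chr12:74040201-74048600), again with 1000 bp under H3K27me3. Next came Paqr4 with Kremen2, a receptor for Wnt antagonists of the Dickkopf family (chr17:23876001-23883200, 7200 bp), and Hs3st3b1, a heparan sulfate sulfotransferase (chr11:63732001-63738800, 6800 bp). Cxxc4, a CXXC zinc finger gene that antagonises Wnt signalling (6200 bp), and Zfp423, a zinc finger factor (5000 bp), were also among the widest. The other peaks of the 10 widest with a start site inside were those of Flrt2, a leucine-rich repeat adhesion protein (4800 bp), Tshz1 with Zadh2 (4800 bp), Atf3, a stress-induced bZIP factor (4200 bp), and Mab21l1, a gene of eye development (4200 bp), the last 2 tied in width with Myb. Wide peaks without a start site within 1 kb included a 7800 bp peak whose nearest start site, that of Meis2, lay 204575 bp away. The other end of Meis2 was 1799 bp from this peak. A 7200 bp peak lay in an intron within Ostm1, 46573 bp from the start of that gene. Both peaks were picked after their values were seen. H3K27me3 covered 50% or less of each of the 10 widest peaks with a start site inside.

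Few Hox and homeobox genes had their start site in these peaks, and more ion channel and solute carrier genes did. Of the 1571 protein-coding start sites inside any ESC Ring1b peak, 341 (21.7%) lay in a Ring1b/H3K27me3 peak, which is the background for the counts that follow. Among Hox genes, 1 of the 37 with a start site in a Ring1b peak was in this class. Other homeobox genes had 6 of 97. Among them were Six6, Pou4f1, Gbx2, Pitx3 and Zfhx4. Other families of developmental factors had 8 of 111, led by Tbx3, Tshz1, Sox11 and Sox4. Signalling ligands and antagonists had 7 of 61, with Inhbb, Nrg3, Pdgfb and Chrd the widest. Neurotransmitter receptors had 3 of 31 (Gabra5, Adra1a and Htr5b) and extracellular matrix genes 4 of 33, among them Col13a1, Col19a1, Adamts8 and Col15a1. All these shares were below the background.

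Signalling receptors, with 8 of 36, were close to the background, and included the Wnt receptors Fzd2 and Fzd6, the Wnt5a co-receptor Ror2 and the betaglycan gene Tgfbr3. Axon guidance genes, with 6 of 28, included Unc5c, Rgma, Unc5d and Robo3. Cadherins and other adhesion genes, with 5 of 23, included Flrt2, Nrcam, Celsr2 and Pcdh18, and germline genes, with 3 of 14, were Ddx4, Tdrkh and Sycp1. Shares above the background were seen for ion channels, with 13 of 40, and for solute carriers, with 14 of 28. The widest ion channel peaks were those of the potassium channels Kcnd3 (3400 bp), Kcng3 (3200 bp) and Kcna3 (2800 bp) and of the calcium channel subunit Cacna2d2 (3000 bp). The widest solute carrier peaks were those of Slc4a4, a bicarbonate cotransporter, Slc6a17, a neutral amino acid transporter, and Slc9a2, a sodium/proton exchanger, at 2600 bp each, with Slc22a21 at 1800 bp. Polycomb genes had 0 of 5 and CDK inhibitors 0 of 3 in this class. These counts are described and not tested, since the lists were drawn up by gene name and members of a family can share a cluster.

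**Figure D2:**
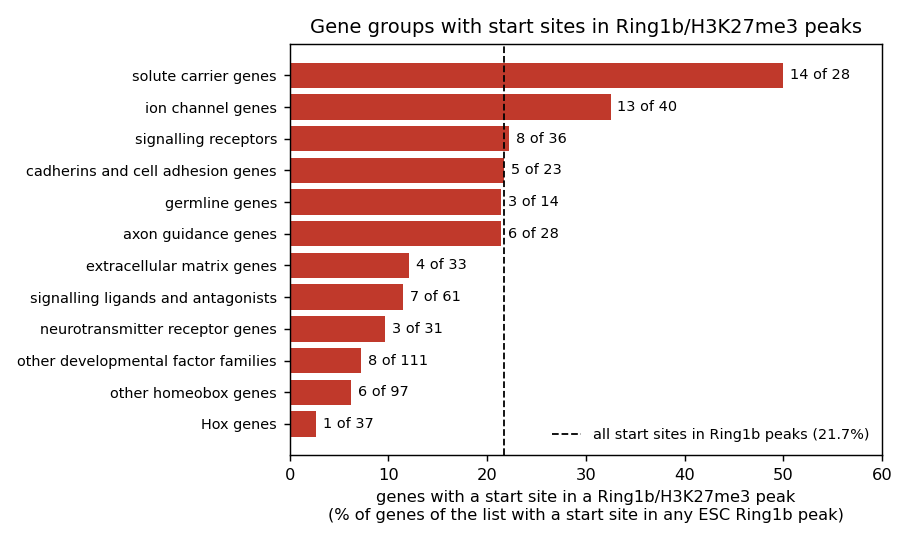
Share of the genes of each group with a start site in a Ring1b/H3K27me3 peak (x axis, % of the genes of the group with a start site in any ESC Ring1b peak), for the groups with at least 10 such genes, with the counts beside the bars. Solute carriers (14 of 28) and ion channels (13 of 40) extend past the dashed line at 21.7%, the share over all start sites, and Hox genes (1 of 37) and other homeobox genes (6 of 97) fall short of it.

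Marker genes of the cell types were checked by name. None of the ESC markers Pou5f1, Nanog, Zfp42, Esrrb, Dppa5a and Tdgf1 had a start site in any of the 6 lists. Of the NSC markers, Sox2 was the only gene with a start site in an NSC peak, of H3K27me3, while Nes, Olig2 and Pax6 had theirs in an ESC Ring1b peak of another class. Of the feeder fibroblast markers, Prrx1 and Twist1 had start sites in ESC Ring1b peaks, neither in this class. Peaks do not measure expression, so the identity of the cells was not tested by this.

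Few of the Ring1b/H3K27me3 peaks carried either mark in NSCs. An NSC Ring1b peak overlapped 66 of the 546 (12.1%, 95% Clopper-Pearson interval 9.47% to 15.1%), against 19.6% of all ESC Ring1b peaks. An NSC H3K27me3 peak overlapped 97 (17.8%, interval 14.6% to 21.2%), against 25.7%. Both NSC peaks were present at 25 (4.58%, interval 2.98% to 6.69%), against 11.7%, and neither at 408 (74.7%, interval 70.9% to 78.3%), against 66.4%. Of the rest, 41 had NSC Ring1b without NSC H3K27me3 and 72 the reverse. At 93 of the 97 peaks with NSC H3K27me3, the NSC peak overlapped the ESC H3K27me3 peak itself. On the X chromosome, 2 of 9 peaks had NSC Ring1b and 0 had NSC H3K27me3.

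Either mark was present at 25.3% of Ring1b/H3K27me3 peaks, at 40.8% of Ring1b/Ezh2/H3K27me3 peaks (difference -15.5 points, 95% Newcombe interval -21.2 to -9.75; adjusted p = 3.68e-07 by Fisher's exact test) and at 19.0% of Ring1b peaks alone (difference 6.26 points, interval 1.80 to 10.8, adjusted p = 0.00751). The last difference turned to -1.19 points (adjusted p = 0.686, Fisher's exact test) when only peaks of at least 2 kb were kept in every list. Splitting by mark, which was done after these values had been seen, gave differences in NSC H3K27me3 that passed the test and differences in NSC Ring1b that did not. NSC H3K27me3 was present at 17.8%, 33.8% and 9.99% of the 3 classes, in the same order (adjusted p = 4.82e-08 against Ring1b/Ezh2/H3K27me3 and 0.00018 against Ring1b alone, Fisher's exact test over 9 added tests). NSC Ring1b was present at 12.1%, 12.2% and 12.6%. The differences in NSC Ring1b were -0.0916 points (interval -4.20 to 3.92, adjusted p = 1) and -0.547 points (interval -4.02 to 3.11, adjusted p = 0.903, Fisher's exact test), and the intervals leave room for differences of up to these bounds. Widths were not held equal in this split. At 1600 to 2000 bp the NSC Ring1b shares were 8.42%, 2.99% and 13.6%, and at 3000 bp or more 20.7%, 13.0% and 22.5%. At 1000 to 1400 bp they were 8.08%, 11.1% and 9.57%, and at 2200 to 2800 bp 13.9%, 14.9% and 13.3%.

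**Figure D3:**
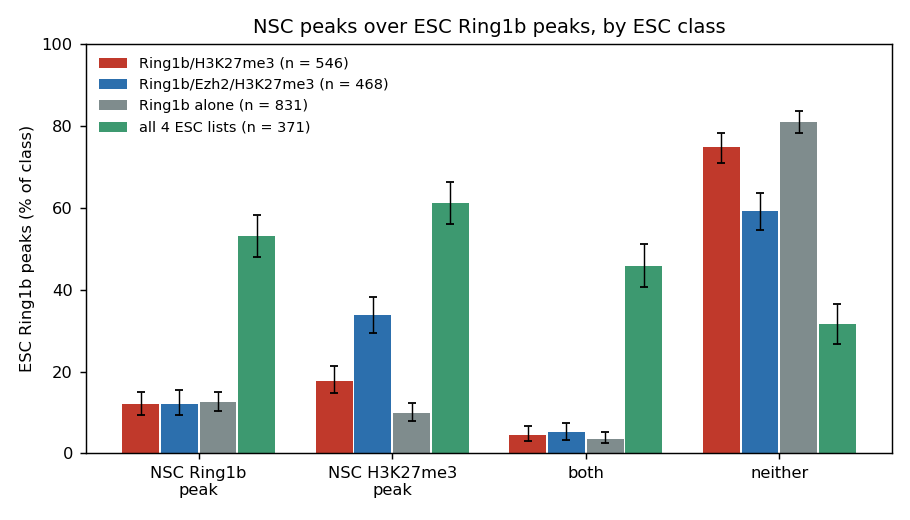
Share of ESC Ring1b peaks (y axis, % of each class) that overlapped an NSC Ring1b peak, an NSC H3K27me3 peak, both or neither, with a bar per class and 95% Clopper-Pearson intervals as error bars. The NSC Ring1b bars of the first 3 classes stand at 12.1%, 12.2% and 12.6%, whereas their NSC H3K27me3 bars stand at 17.8%, 33.8% and 9.99%.

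Width moved with these shares. Among Ring1b/H3K27me3 peaks of at least the median width, 108 of 316 (34.2%) had either NSC mark, compared with 30 of 230 narrower peaks (13.0%; difference 21.1 points, interval 14.1 to 27.7, adjusted p = 5.02e-08 by Fisher's exact test). With only 2 kb at the centre of each peak counted, the difference was 20.2 points. With only peaks of at least 2 kb kept in every list, the narrower group drops out and the split falls at a new median width. This other contrast, 25 of 159 wider peaks against 12 of 102, gave 3.96 points and did not pass (adjusted p = 0.584, Fisher's exact test). NSC H3K27me3 was present at 11.1% of peaks of 1000 to 1400 bp, 8.42% of those of 1600 to 2000 bp, 27.9% of those of 2200 to 2800 bp and 26.1% of those of 3000 bp or more. NSC Ring1b was present at 8.08%, 8.42%, 13.9% and 20.7% of the same bins. Within peaks of 1600 to 2800 bp, either mark was present at 88 of 355 Ring1b/H3K27me3 peaks and at 87 of 235 Ring1b/Ezh2/H3K27me3 peaks (difference -12.2 points, adjusted p = 0.0036 by Fisher's exact test). Within the same widths the difference from Ring1b peaks alone was 3.82 points and no longer passed the exact test (adjusted p = 0.284). Widths still differ inside that range, where 190 of the 355 but 67 of the 235 peaks were of 1600 to 2000 bp. From the narrowest bin to the widest, either mark was present at 15.2%, 14.2%, 37.0% and 38.0% of Ring1b/H3K27me3 peaks. For Ring1b/Ezh2/H3K27me3 peaks the shares were 16.7%, 22.4%, 42.9% and 47.0%. The 95% Clopper-Pearson intervals of both classes overlap in every bin, and the bins were not tested.

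**Figure D4:**
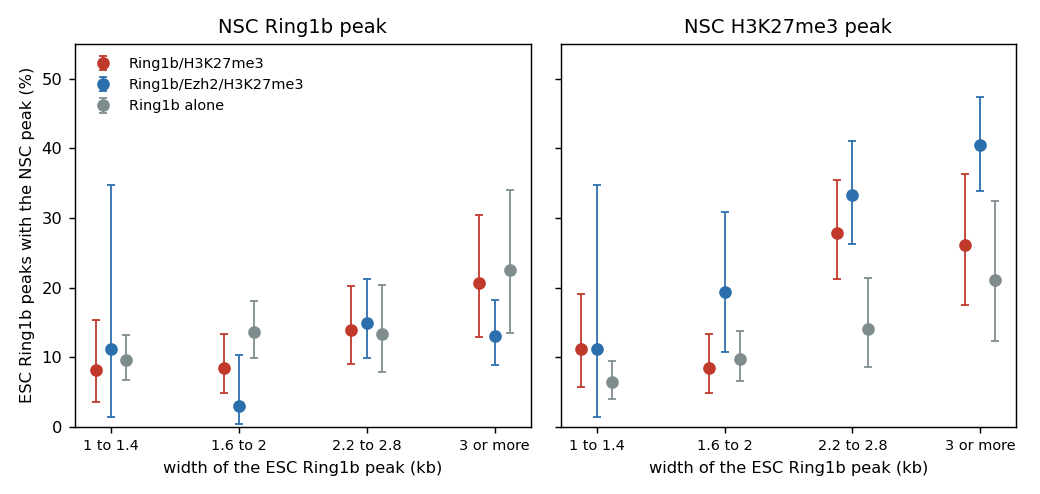
Share of ESC Ring1b peaks (y axis, %) with an NSC Ring1b peak (left) or an NSC H3K27me3 peak (right), by width of the ESC Ring1b peak (x axis, kb), for 3 classes of ESC peaks, with 95% Clopper-Pearson intervals. For Ring1b/H3K27me3 peaks the H3K27me3 share is 8.42% at 1600 to 2000 bp and 27.9% at 2200 to 2800 bp, and the Ring1b share runs from 8.08% in the narrowest bin to 20.7% in the widest.

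The 25 peaks with both NSC marks were mostly away from start sites. They made up 9 of the 380 Ring1b/H3K27me3 peaks within 1 kb of a start site (2.37%) and 16 of the other 166 (9.64%; difference -7.27 points, 95% Newcombe interval -12.8 to -3.10, adjusted p = 0.00146 by Fisher's exact test), a split chosen after the values were seen. For NSC Ring1b the shares were 11.3% and 13.9% (adjusted p = 0.509), and for NSC H3K27me3 15.8% and 22.3% (adjusted p = 0.158, Fisher's exact test). Of the 25, 11 lay between protein-coding genes and 5 touched an exon away from the start. The widest and a few others, picked after their values were seen, are given here by their nearest start site. A peak 6451 bp from the start of Zic4, a zinc finger gene (chr9:91245601-91250800, 5200 bp), had NSC Ring1b and NSC H3K27me3 peaks of 2000 bp each. The peak nearest to Onecut1, a homeobox gene (5728 bp away), had 5400 and 8200 bp. The peak far from Nr2f2 had 4000 and 1000 bp, that nearest to Rsrc1 20400 and 15600 bp, that near Gm10320 4000 and 5400 bp and that near Tnfrsf13c 1200 and 1600 bp. The peak nearest to Rsrc1 lay outside that gene and touched an exon of another protein-coding gene. It was 2600 bp from a Ring1b peak of all 4 ESC lists, and its NSC Ring1b peak (chr3:66769601-66790000) also reached that neighbour. The width of such an NSC peak is therefore not that of the Ring1b/H3K27me3 peak alone. Peaks near Hand2 and Nkx3-2 had NSC Ring1b peaks of 17200 and 13200 bp, each far wider than the ESC peak of 2400 and 2000 bp. In all, 8 of the 25 lay within 50 kb of a Ring1b peak of all 4 ESC lists. Of the 39 peaks within that distance, 14 (35.9%) had NSC H3K27me3, compared with 83 of the 507 farther away (16.4%; difference 19.5 points, interval 5.92 to 35.5, adjusted p = 0.00957, Fisher's exact test). For NSC Ring1b the counts were 8 of 39 and 58 of 507 (adjusted p = 0.181, Fisher's exact test).

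At start sites, the peaks with both NSC marks were those of Six6, Pou4f1, Ptpru, Slc9a2, 2210011C24Rik, Ocln and Notum, with Barhl1 and Tox within 1 kb. The Six6 peak widened from 8400 bp of Ring1b in ESCs to 16800 bp in NSCs, and H3K27me3 there from 1000 bp to 13600 bp. At Pou4f1, a POU homeobox factor of sensory neurons (chr14:104863601-104867600), Ring1b spanned 4000 bp in ESCs and 2400 bp in NSCs, and H3K27me3 1000 and 1600 bp. Ptpru, a receptor tyrosine phosphatase (chr4:131392001-131395000), had 3000 and 1000 bp of Ring1b. Notum, an enzyme that inactivates Wnt proteins (chr11:120520601-120522600), had 2000 bp of both marks in both cell types. Ocln, which encodes the tight junction protein occludin, had 2600 and 1000 bp of Ring1b, and Slc9a2 had 2600 and 1600 bp. Over the 25 peaks, the NSC Ring1b peak was wider than the ESC peak at 10, equal at 2 and narrower at 13. The NSC H3K27me3 peak was wider than the ESC H3K27me3 peak at 19, equal at 2 and narrower at 4. Its median width was 2800 bp here, against 1600 bp over the whole NSC H3K27me3 list. At the 72 peaks with NSC H3K27me3 alone it was wider at 21, equal at 12 and narrower at 39. The 25 were grouped by overlap with NSC peaks, which wide peaks meet more readily and which can take in neighbouring ESC peaks. Spreading of the mark was not tested. The 2 NSC peaks overlapped each other at 24 of the 25.

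**Figure D5:**
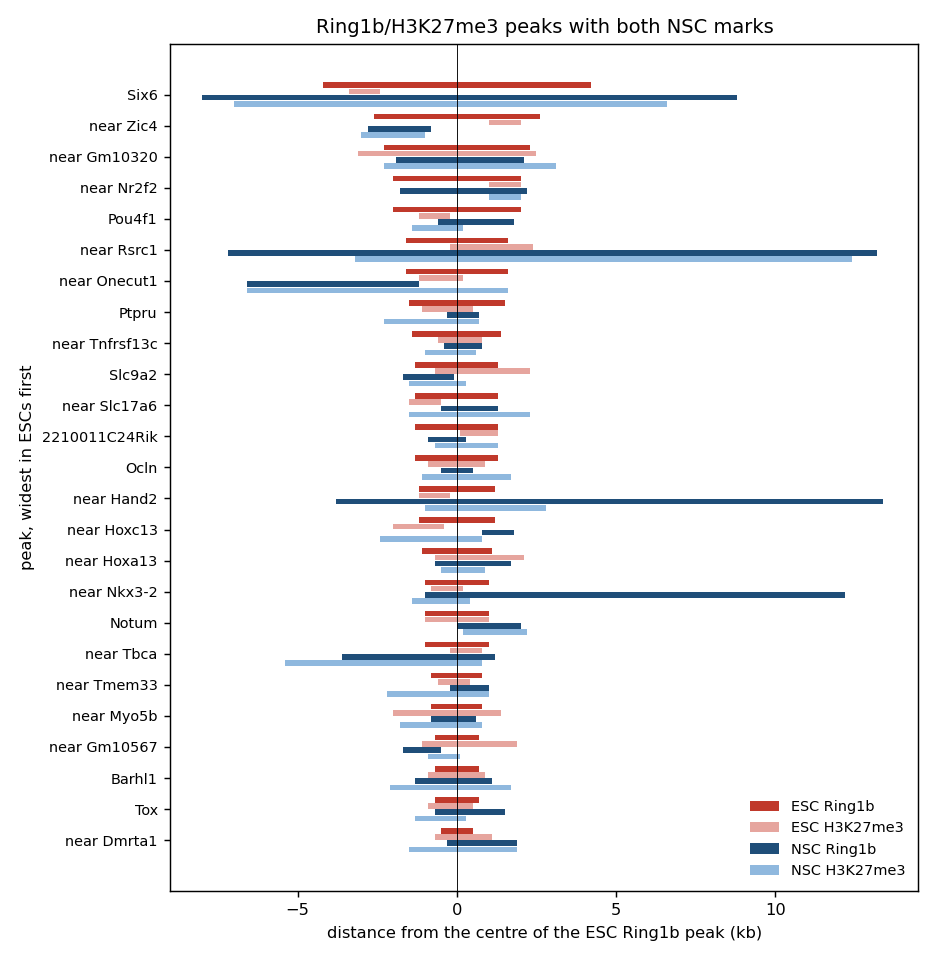
Extent of the called peaks at the 25 Ring1b/H3K27me3 peaks with both NSC marks, 1 row per ESC Ring1b peak, as distance from its centre (x axis, kb), with bars for ESC Ring1b, ESC H3K27me3, NSC Ring1b and NSC H3K27me3. The NSC Ring1b peaks at Six6 (16800 bp) and near Hand2 (17200 bp) reach far beyond the ESC peaks of 8400 and 2400 bp, while at Ptpru the NSC Ring1b peak of 1000 bp lies inside the ESC peak of 3000 bp. Labels that start with near give the closest start site.

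Where Ring1b was present without H3K27me3, the NSC Ring1b peak had a median width of 1400 bp and was narrower than the ESC peak at 33 of 41. The median over the whole NSC Ring1b list was also 1400 bp, against 2200 bp over the ESC list. These included Hs3st3b1 (6800 bp in ESCs, 1800 bp in NSCs), Inhbb, an activin subunit (4000 and 1200 bp), and Zfhx4, a zinc finger homeobox factor (2800 and 1800 bp). A start site lay within 1 kb of 34 of these 41, against 380 of all 546 Ring1b/H3K27me3 peaks (69.6%). Of the 41, 0 lay within 50 kb of a peak of all 4 lists, where only 39 of all 546 did. Where H3K27me3 was present without Ring1b, its NSC peak had a median width of 1600 bp, which is the median of the whole NSC H3K27me3 list, and was narrower than the ESC H3K27me3 peak at 39 of 72. Tbx3 had 2 NSC H3K27me3 peaks, of 1400 and 1200 bp, Flrt2 had 1000 bp, Cacna2d2 had 3600 bp, and Id4, an inhibitor of bHLH factors, had 3000 bp.

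Over all 546 peaks 74.7% had neither NSC mark, and the gene groups with a start site inside are given beside that share. Neither mark was present at 8 of 8 signalling receptors, 6 of 6 axon guidance genes and 3 of 3 neurotransmitter receptors. It was so for 11 of 14 solute carriers, 10 of 13 ion channels and 6 of 8 developmental factors outside the homeobox families, which is near the share over all peaks. For signalling ligands and antagonists the count was 4 of 7, for adhesion genes 3 of 5 and for extracellular matrix genes 2 of 4. For homeobox genes outside the Hox clusters it was 3 of 6. Germline genes, with 2 of 3, were as near the share over all peaks as 3 genes allow. In groups this small a single gene moves the share by many points. These counts are small and were not tested. Of the homeobox genes outside the Hox clusters, Six6 and Pou4f1 had both marks, Zfhx4 had NSC Ring1b, and Gbx2 and Pitx3 had neither. The 3 ion channel genes with a mark were Kcng3, Cacna2d2 and Kcna3, each with NSC H3K27me3 alone. Of the 10 widest peaks with a start site inside, 6 had neither NSC mark. A peak missing from an NSC list may reflect fewer reads or another input as well as less mark, and these were not tested.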

How the data were processed

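Per the labels, ESCs and NSCs were cross-linked in 1% formaldehyde for 10 min and chromatin was sonicated to 250 bp on average. By the paper's methods, cells for Ring1b were first treated with a second cross-linker, EGS, which the labels do not mention. Among the ESC targets only Ring1b had this step, and it has an input of its own. How far Ring1b peaks without Ezh2 or Cbx2 peaks follow from this difference cannot be told. Of the 10 samples, 6 carried a list of peaks and the 4 inputs were not analysed here.

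The deposited values are the start and end of each peak in mm9, in bp. To make them, the authors mapped reads to mm9 (with Bowtie by the paper's methods and BWA by the submitters' processing notes), compared each library with its input in overlapping windows and joined neighbouring enriched windows. All coordinates were multiples of 200 bp and no peak was narrower than 1000 bp, so widths are no finer than that step. The lists hold no height, score, p-value or count, so depth is unknown and peaks cannot be ranked by strength. Samples were assigned to cell types and targets from their labels.

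Overlaps of at least 1 bp, start sites and base composition were computed with Python (3.11.15) and the packages numpy (version 2.4.6), scipy (version 1.17.1) and statsmodels (version 0.14.6), from the mm9 (NCBIM37) sequence and its GENCODE annotation, which has 22350 protein-coding genes on these 20 chromosomes. A gene's start site is the 5′ end of its annotated extent. Shares of peaks were compared by two-sided Fisher's exact test with Benjamini-Hochberg adjustment, over 5 planned and, separately, 9 added tests, at a threshold of 0.05. Their 95% intervals are Clopper-Pearson for shares and Newcombe for differences, and cover counting error only. Peaks that lie near each other are not independent, which these tests ignore. The code was tested on simulated lists. The peaks, the 17 lists of genes and the tests were chosen with earlier results of these data known. Genes were named by width of the ESC Ring1b peak, namely the 10 widest with a start site inside, the 10 widest with both NSC peaks, the 3 widest with no gene within 10 kb, up to 4 of each gene list and the peaks at the limits of the rule. Others, such as Hand2, Nkx3-2, Notum, Barhl1, Tox, Ocln, 2210011C24Rik and Id4 in the account of NSC peaks, were named after their values were seen. Alternatives were a larger minimum overlap, wider peaks, a gap of 5 kb to Ezh2 and Cbx2, autosomes, merged peaks, other start site definitions and 2 kb centred on each peak. Data of other assays were not used here. Some genes that the naming rule covers are not reported here.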

Additional observations from a re-analysis of the deposited data

How the results depend on the processing

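Of 76 alternative values, 58 were counted as unchanged. For differences between groups this meant the same direction and the same side of the threshold, whatever their size. The start site difference from Ring1b peaks alone was so counted when it rose from 5.34 to 9.77 points, with start sites inside the peak. Shares and the number of peaks were not tested against a threshold and were judged by size alone. No paired analysis was possible because each cell type and target has 1 library, and for the same reason none could be left out. With peaks of at least 2 kb in every list, which also changes the classes, 261 peaks met the rule, 73.6% of them with a start site within 1 kb, 4.21% with NSC Ring1b, 13.4% with NSC H3K27me3 and 85.8% with neither. The difference in either NSC mark from Ring1b peaks alone then turned to -1.19 points, and that in start sites from Ring1b peaks alone fell to 4.43 points. That between wide and narrow peaks, split at the new median of the peaks kept, was 3.96 points. None of the 3 passed the test. The difference in either NSC mark from Ring1b peaks alone was 3.82 points within widths of 1600 to 2800 bp, an alternative chosen after the data were seen, and did not pass. The difference in start sites from Ring1b peaks alone did not pass with an overlap of 50% (4.57 points), autosomes alone (4.91), peaks within 3 kb merged (4.44), start sites of all annotated genes (4.85) or the starts of every transcript (4.06, added later). The cause of these changes was not tested. Start sites were found inside 59.7% of the peaks, within 5 kb of 76.4%, within 1 kb of 73.4% when all annotated genes were counted and of 77.1% when every transcript start was. The differences from Ring1b/Ezh2/H3K27me3 peaks in either NSC mark and in start sites passed under every alternative run. No start site difference is given within a band of widths. The band of 1600 to 2800 bp, used for NSC marks, does not make the widths of the classes equal. The split by NSC mark was not run under other settings. Depth is unknown, so how far a missing peak reflects few reads cannot be told.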
